A study of Rattus norvegicus with 18 samples.

Results

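Gfap, Fabp7, Glul, Gja1, S100b, Sox2, Cdh19 and Vim are genes by which the satellite glia of the dorsal root ganglion (DRG) and their immature relatives are commonly recognised. They were taken by symbol from the count table of 15075 RefSeq identifiers, in which 8 of 8 had a row and each had 1 identifier. Gfap was placed on the list because earlier results of these data had it higher in bPYX+NT3 than in bPYX+GFP rats, so that this contrast is described for Gfap and not tested. For the other 7 genes no measured value is given as the reason, but the list was made with earlier results of these data known.

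Satellite glia are flat cells that wrap the cell bodies of sensory neurons in the ganglion. They couple to each other through gap junctions, take up potassium and glutamate, and turn on the intermediate filament GFAP after many kinds of nerve damage. They arise from neural crest precursors that also give Schwann cells, and several of the 8 genes are shared: S100b, Sox2 and Cdh19 are expressed along the Schwann lineage, and Vim is also made by fibroblasts, endothelium and macrophages.

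The study sequenced polyadenylated RNA of cervical DRG (levels C6-C8, pooled within each rat) from adult Lister Hooded rats in 3 groups of 6. Both injured groups had received bilateral pyramidotomy (bPYX), which cuts the corticospinal tracts in the medulla. One day later the forelimb flexor muscles of 1 side were injected with an adeno-associated viral vector, AAV1, driven by the CMV promoter. The vector carried human prepro-neurotrophin-3 in bPYX+NT3 rats (rats 2, 11, 17, 23, 39 and 40) and GFP in bPYX+GFP rats (rats 5, 15, 18, 21, 52 and 57), and ganglia of the treated side were taken 10 weeks after injury. Naive rats (rats 41, 42, 43, 44, 45 and 49) had neither surgery nor vector. The injury, the surgery, the vector and GFP therefore cannot be told apart in the comparison of bPYX+GFP with naive rats, whereas the injured groups differ in what the vector encoded. The injury was in the brainstem and did not itself cut the DRG neurons and their glia. The study's methods also name behavioural testing, neurophysiology and nerve tracing for the injured rats. The part of these procedures in the levels was not tested. The vector transcript was not analysed here, nor was the rat's own Ntf3.

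Each rat gave 10057787 to 16002410 read-pairs on genes, and levels are given as CPM, the read-pairs on a gene scaled to the size of the library. Neurofilament and other neuronal markers summed to between 10289 and 13426 CPM and myelinating Schwann cell markers to between 2577 and 4720 CPM per rat, whereas the markers of central glia summed to between 15.0 and 21.1 CPM. Of the 7 central markers in the table, Slc1a2 had 0 to 2 read-pairs per rat, Opalin 0 to 4, Hapln2 4 to 22, Mobp 15 to 37, Aldh1l1 12 to 59, Olig2 29 to 57 and Mog 79 to 174. These sums were not read as amounts of cells, since a low count under an identifier need not be a low level of the gene. Rats 11 and 57 stood apart in library composition: their shares of read-pairs on no annotated feature were 30.8% and 31.7%, against a median of 33.5% over the 18 rats, and their ambiguous shares of 3.41% and 3.31% were the highest. In bulk ganglia, fewer cells of a type and less RNA per cell cannot be told apart.

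Gfap, the intermediate filament of reactive satellite glia and astrocytes, was the only 1 of the 8 genes that differed between bPYX+GFP and naive rats at an unadjusted p under 0.05, and it was lower in the bPYX+GFP rats. In naive rats its lowest, median and highest levels were 5.23, 10.1 and 12.2 CPM, and in bPYX+GFP rats 4.54, 5.63 and 7.99 CPM. The 6 bPYX+GFP rats all lay below the naive median, and the groups overlapped only through naive rat 44, whose 5.23 CPM lay below every bPYX+GFP rat except rat 57. The log2 fold change was -0.70 (SE 0.20, 95% interval -1.12 to -0.27), a level 0.618 times that of naive rats. edgeR's quasi-likelihood test gave p = 0.00338 and an adjusted p of 0.822 over the 11601 genes tested, and the two-sided exact permutation test gave p = 0.0238. Gfap thus did not pass correction for the number of genes. No gene did by the quasi-likelihood test, which called 377 genes at the unadjusted threshold, while 13 genes did by edgeR's likelihood ratio test and 16 by DESeq2, where Gfap was not among them. At the unadjusted threshold 3.25% of all genes tested were called in this comparison, with 2.52% of all genes tested called as lower and a single call among 8 genes cannot be read as a result about the list. The contrast by which Gfap was chosen uses the same bPYX+GFP rats, so that these p-values are not independent of the choice.

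With each rat left out in turn, the log2 fold change of Gfap between bPYX+GFP and naive rats lay between -0.82 (without rat 44) and -0.62 (without rat 41). A single fit over all 18 rats, in which the wide spread of the bPYX+NT3 rats enters the error, gave the same fold change of -0.70 with a larger SE of 0.34 and an edgeR p of 0.0572, against the exact permutation p of 0.0238 for the 12 rats. When rats were grouped by the sample to which their own count file is attached in the deposit, which names another group for 17 of 18 rats, the log2 fold change was -0.74 and the p was 0.0918 (edgeR).

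In bPYX+NT3 rats Gfap was higher than in bPYX+GFP rats, which is how it was chosen. The bPYX+NT3 rats 2, 11, 17, 23, 39 and 40 had 10.6, 19.6, 32.5, 8.6, 7.8 and 6.2 CPM. All 6 exceeded the bPYX+GFP median, but only rats 11 and 17 exceeded the highest naive rat, and the remaining rats lay within the naive range. The mean was 14.2 ± 10.1 CPM (SD, n = 6) against 5.96 ± 1.2 CPM in bPYX+GFP and 9.61 ± 2.71 CPM in naive rats, and the log2 fold change from bPYX+GFP was 1.26. Rat 17 carried much of it, since the fold change was 0.85 without rat 17 and 1.42 without rat 40. Under the grouping by attached files it was 0.02, whereas the study itself reported 1.26, as under the table heading. Against naive rats, the log2 fold change of Gfap in bPYX+NT3 rats was 0.56 (95% interval -0.23 to 1.36, edgeR p = 0.150, adjusted p = 0.607, exact permutation p = 0.416), and it was 0.16 without rat 17 and 0.30 once the no-feature share was in the model. The bPYX+NT3 rats are those that chose the gene, so that this interval and these p-values are not independent of the choice.

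**Figure D1:**
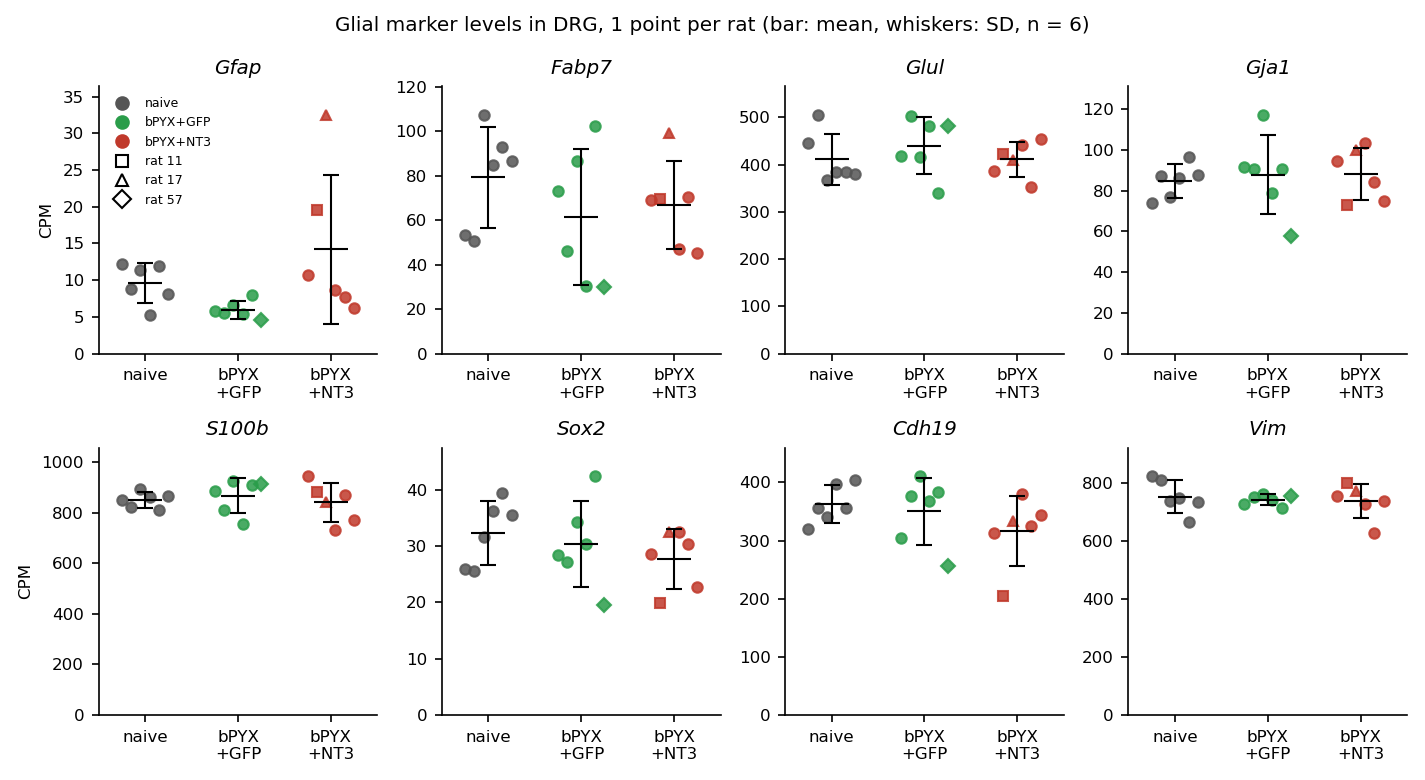
Levels of the 8 genes in CPM (y axis, from 0) by group (x axis), with 1 point per rat, the mean as a bar and the SD as whiskers (n = 6). Squares, triangles and diamonds mark rats 11, 17 and 57. Gfap reached 32.5 CPM in rat 17 and 19.6 CPM in rat 11 and lay between 4.54 and 7.99 CPM in bPYX+GFP rats, and no gene separated the groups completely.

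Gfap was a low transcript in these ganglia, with 52 to 427 read-pairs per rat, but its spread was larger than counting error. Its biological coefficient of variation within groups was 39.1%, above that of 96.0% of the 11821 genes fitted over 18 rats, while counting error at its median depth was 10.3%. The spread was unequal between groups: the coefficient of variation of CPM was 20.2% in bPYX+GFP rats, 28.3% in naive rats and 71.3% in bPYX+NT3 rats.

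The genes whose levels most resembled Gfap over the 18 rats were mostly not glial markers. They were Rcan1, an inhibitor of calcineurin (Pearson's r = 0.841), Spry4, a feedback inhibitor of receptor tyrosine kinase signalling (0.841), the chemokine Ccl22 (0.836), the endocytic regulator Ehd4 (0.829), the fatty acid desaturase Fads1 (0.819), Litaf (0.816), Fam83f (0.784) and the cell cycle inhibitor Cdkn1a (0.777). These 8 were picked as the highest of all genes tested and carry no p. Each was less like Gfap once rat 17 was left out, with r between 0.683 for Fads1 and 0.784 for Spry4. Ccl22 shows the pattern: it was 12.8 CPM in rat 17 and 3.9 CPM in rat 11, was at most 0.9 CPM in bPYX+GFP rats, and ranged from 0.4 to 4.3 CPM in naive rats. The group differences of these genes follow from the likeness by which they were picked and were not tested.

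**Figure D2:**
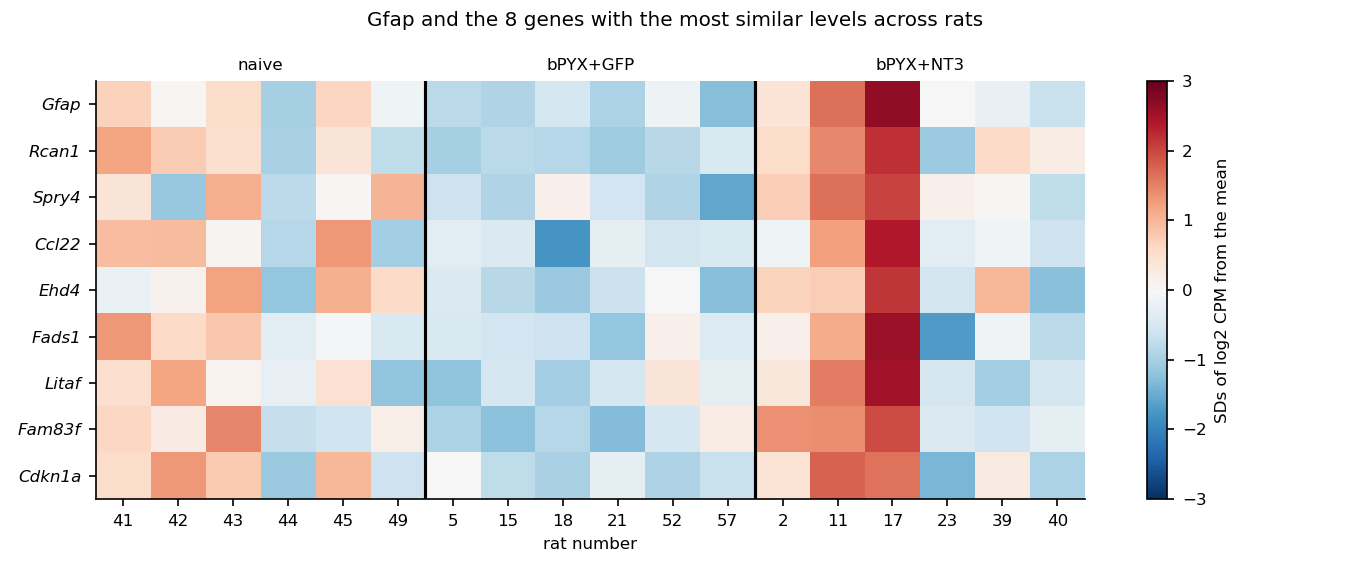
Gfap (top row) and the 8 genes most like it, with 1 column per rat (x axis, rat number) in 3 groups. Colour gives the distance of a rat's log2 CPM from the mean of the 18 rats, in SDs of that gene. Rats 11 and 17 of the bPYX+NT3 group are high in every row, the bPYX+GFP rats are mostly low, and naive rats 44 and 49 are lower than the other naive rats for several genes.

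Reactive satellite glia and astrocytes respond to cytokines of the gp130 family through STAT3, a factor known to act on the Gfap gene. The 250 bases before the Gfap start in RefSeq (build GRCr8, chr10:88361662-88361911, minus strand) are shown because Gfap is the gene on which the group comparison turns. They were searched on both strands for the STAT motif TTCNNNGAA, found in 7.67% of 33469 promoter windows, and for the AP-1 motif TGANTCA, found in 6.34%. Sequence outside these 250 bases was not searched, and binding was not tested. Neither set of letters occurs in this window, which is therefore all in lower case:
Gfap: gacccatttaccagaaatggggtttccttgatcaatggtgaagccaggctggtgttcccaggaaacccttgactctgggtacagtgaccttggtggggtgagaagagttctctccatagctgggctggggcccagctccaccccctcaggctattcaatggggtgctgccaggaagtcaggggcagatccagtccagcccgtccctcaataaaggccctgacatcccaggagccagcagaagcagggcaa

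Of 14 genes of reactive glia and gp130 signalling, 12 were tested. Of all genes tested, 3.25% were called between bPYX+GFP and naive rats, 6.01% between bPYX+NT3 and naive rats and 1.73% between the injured groups. Calls in this list and in those below are to be read against these shares. Cntf, a gp130 cytokine held in Schwann cells, was lower than in naive rats in both injured groups, with log2 fold changes of -0.47 (SE 0.14) in bPYX+GFP and -0.47 (SE 0.13) in bPYX+NT3 rats (edgeR p = 0.00426 and 0.00246, adjusted p = 0.822 and 0.607, exact permutation p = 0.0108 and 0.00216). Its levels were 176 to 298 CPM in naive, 123 to 190 CPM in bPYX+GFP and 121 to 170 CPM in bPYX+NT3 rats, so that the bPYX+NT3 and naive rats did not overlap. In that comparison the groups did not overlap for 0.257% of all genes. Serpina3n, a secreted protease inhibitor that marks reactive astrocytes, was the only gene of this list called by edgeR between the injured groups. It had 2.27, 4.97 and 8.51 CPM (lowest, median, highest) in bPYX+GFP and 5.63, 6.79 and 26.1 CPM in bPYX+NT3 rats. The groups overlapped, the log2 fold change was 1.17 (SE 0.43, edgeR p = 0.0172, adjusted p = 0.851), and the exact permutation test gave p = 0.0649. As for Gfap, rats 11 and 17 were the highest bPYX+NT3 rats, with 16.6 and 26.1 CPM, although naive rat 42 reached 18.3 CPM. The median log2 fold change of the list was 0.15 from bPYX+GFP to bPYX+NT3, against 0.005 over all genes. From naive rats it was -0.09 to bPYX+GFP and 0.05 to bPYX+NT3. Between the injured groups, myelinating Schwann cell and macrophage markers had medians of 0.21 and 0.20, whereas fibroblast markers had -0.02. A like median thus occurred in lists of other cells, and the list's median was not tested.

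The other 7 genes did not differ between any pair of groups at an unadjusted p under 0.05 by edgeR, and none did by DESeq2, by the likelihood ratio test or by the exact permutation test. Their smallest edgeR p was 0.239 between bPYX+GFP and naive rats, 0.133 between bPYX+NT3 and naive rats, where 6.01% of all genes were called, and 0.298 between the injured groups, where 1.73% were called. These shares over all genes depend on single libraries: between the injured groups 201 of 11623 genes were called, and 2291 of 11556 without rat 57. In no comparison did the groups separate completely for any of the 8 genes, as they did for 0.267%, 0.257% and 0.0516% of all genes. Their median log2 fold changes were -0.01, -0.03 and -0.05, against 0.01, 0.001 and 0.005 over all genes. For Glul, Gja1, S100b, Sox2, Cdh19 and Vim the 95% intervals all lay within 0.739 to 1.26 times from naive to bPYX+GFP rats, within 0.693 to 1.2 times from naive to bPYX+NT3 rats, and within 0.712 to 1.24 times between the injured groups.

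**Figure D3:**
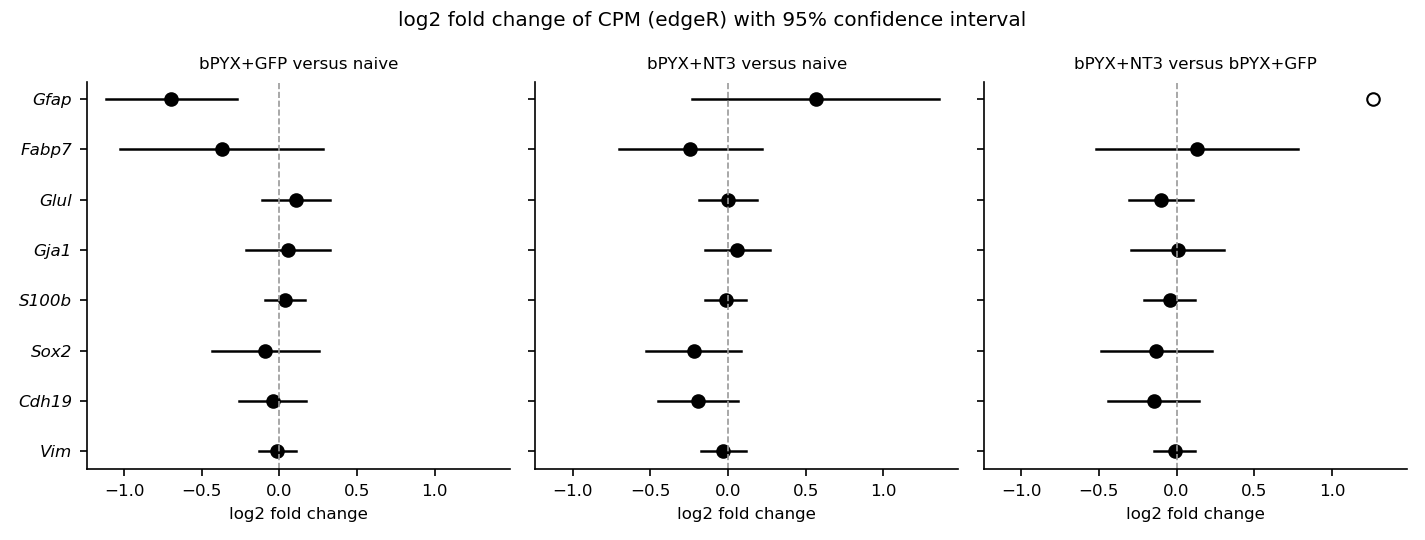
log2 fold change of the 8 genes (x axis) in the 3 comparisons (panels), with 95% confidence intervals from edgeR as lines. The open circle is Gfap between the injured groups, which chose it and has no interval. Of the intervals drawn, only that of Gfap between bPYX+GFP and naive rats, from -1.12 to -0.27, leaves out 0.

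Vim and S100b were the steadiest of the 8 genes. Vim encodes vimentin, the filament protein of immature glia and of mesenchymal cells, and its lowest, median and highest levels were 666, 742 and 824 CPM in naive, 714, 747 and 762 CPM in bPYX+GFP and 629, 746 and 801 CPM in bPYX+NT3 rats. The groups overlapped almost wholly, and the log2 fold changes were -0.01, -0.03 and -0.01 in the 3 comparisons. The biological coefficient of variation of Vim was 7.88%. Of all genes 9.59% had a lower one, and of genes of like level 17.0%. S100b, a calcium-binding protein of glia, had a coefficient of 8.36%, and levels of 851 ± 30.8 CPM in naive, 867 ± 68.6 CPM in bPYX+GFP and 841 ± 77.0 CPM in bPYX+NT3 rats (SD, n = 6). Of all genes 12.7% had a lower coefficient than S100b, and of genes of like level 23.4%. Gfap was thus variable in the same ganglia in which its filament partner vimentin varied little. Of 11 further intermediate filament genes and partners, 9 were tested, and nestin (Nes), a filament protein of neural precursors, was the only one called. It was 145 to 220 CPM in naive and 118 to 157 CPM in bPYX+GFP rats, with a log2 fold change of -0.26 (SE 0.11, edgeR p = 0.0246, adjusted p = 1, exact permutation p = 0.0346). Among 10 other S100 genes, S100a4 was lower in bPYX+GFP than in naive rats by -0.29 (SE 0.12, edgeR p = 0.0274, adjusted p = 1, exact permutation p = 0.0368). S100a5, at under 2.5 CPM in every rat of the injured groups, was higher in bPYX+NT3 than in bPYX+GFP rats by 0.39 (SE 0.18, edgeR p = 0.0458, adjusted p = 0.851, exact permutation p = 0.0346).

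Fabp7 varied strongly between rats, and Glul varied in the opposite direction. Fabp7 encodes the brain fatty acid binding protein of immature and satellite glia, and Glul encodes glutamine synthetase, which turns glutamate into glutamine. Fabp7 had 50.5, 85.6 and 107 CPM (lowest, median, highest) in naive, 29.8, 59.7 and 102 CPM in bPYX+GFP and 45.3, 69.4 and 99.4 CPM in bPYX+NT3 rats. The ranges overlapped widely, and rats 57 and 21 of the bPYX+GFP group were the lowest, with 29.8 and 30.2 CPM. The biological coefficient of variation of Fabp7 was 34.6%, above that of 99.0% of genes of like level, where the median was 11.0%. The intervals of its fold changes were accordingly wide, 0.492 to 1.21 from naive to bPYX+GFP, 0.614 to 1.16 from naive to bPYX+NT3 and 0.697 to 1.72 between the injured groups.

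Glul was 368 to 506 CPM in naive, 340 to 503 CPM in bPYX+GFP and 353 to 454 CPM in bPYX+NT3 rats, with log2 fold changes of 0.11, 0.002 and -0.10. Rats with much Fabp7 had little Glul. Over the 18 rats, Pearson's r of their log2 CPM was -0.815 (permutation p = 4e-05, adjusted 0.00112 over the 28 pairs of the 8 genes) and Spearman's rho was -0.820 (permutation p = 7e-05, adjusted 0.00196). It was -0.798 without rats 21 and 57, the farthest from the Fabp7 median, and -0.949, -0.852 and -0.560 within naive, bPYX+GFP and bPYX+NT3 rats. After the group means were removed it was -0.812.

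Of the 6 genes most like Fabp7 or Glul over the rats, 4 were genes of the circadian clock. The 3 most like Fabp7 were Npas2 (r = 0.908), Ttyh1, a membrane protein of glia (0.868), and Bmal1 (0.866), and the 3 most like Glul were Per2 (0.922), an identifier with no symbol here, NM_031621 (0.881), and Per3 (0.880). NPAS2 and BMAL1 form an activator of the clock's positive arm, and PER2 and PER3 belong to the negative arm, which peaks in another part of the day. After this was seen, 16 clock genes were listed, of which 12 were tested, and their values are given as a description with no p. The genes of the positive arm were high with Fabp7 and low with Glul: Bmal1 had r = 0.87 with Fabp7 and -0.77 with Glul, and Npas2 0.91 and -0.75. Per1, Per2, Per3, Tef and Ciart had r between -0.89 and -0.69 with Fabp7 and between 0.68 and 0.92 with Glul. With group means removed, Bmal1 still had 0.85 and -0.76, and Per2 -0.90 and 0.92. Cry1 had -0.60 and 0.54, Cry2 -0.62 and 0.44, Nfil3 0.19 and -0.05, Nr1d1 -0.24 and 0.13, and Nr1d2 -0.30 and 0.21. Other members also followed clock genes. Sox2 had r of -0.89 with Per1, -0.90 with Cry2, -0.83 with Tef and 0.62 with Bmal1, but -0.19 with Cry1 and -0.17 with Nfil3. Gja1 had -0.70 and Cdh19 -0.78 with Cry2, and Gfap had 0.76 with Nfil3, -0.66 with Nr1d2 and 0.57 with Bmal1. All 18 libraries shared 1 scaling, and several clock genes also followed the no-feature share. Its r was -0.74 with Per1, -0.78 with Cry2, -0.66 with Nr1d1, 0.61 with Nr1d2, -0.56 with Tef and -0.53 with Nfil3. It was 0.32 with Bmal1 and Npas2, -0.21 with Per2, -0.27 with Per3 and Ciart, and -0.04 with Cry1.

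Bmal1 and Per2 differed widely among the rats of each group. Bmal1 was 20.6 to 43.9 CPM in naive, 11.3 to 43.7 CPM in bPYX+GFP and 19.2 to 45 CPM in bPYX+NT3 rats, and Per2 was 9.89 to 29.2, 8.09 to 35.2 and 12.7 to 25.1 CPM. The ranges overlapped in each comparison. Rat 52 of the bPYX+GFP group, for example, had 102 CPM of Fabp7, 340 CPM of Glul, 43.7 CPM of Bmal1 and 8.1 CPM of Per2, while rat 21 of the same group had 30.2, 481, 16.9 and 35.2 CPM. Neither Bmal1 nor Per2 was called in any comparison: from naive to bPYX+GFP rats the log2 fold changes were -0.52 (SE 0.31) for Bmal1 and 0.31 (SE 0.35) for Per2. Of the 12 clock genes, Nfil3 was called by edgeR as lower in bPYX+GFP than in naive rats and as higher in bPYX+NT3 than in bPYX+GFP rats, and Cry2 as higher in bPYX+NT3 than in naive rats. Of all genes tested, 3.25%, 1.73% and 6.01% were called in these comparisons. The clock genes were listed after their values were seen, so that these calls are a description and not a test. The hour at which each rat's ganglia were taken is not given in the sources used here, and its part in the levels of Fabp7 and Glul was not tested.

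**Figure D4:**
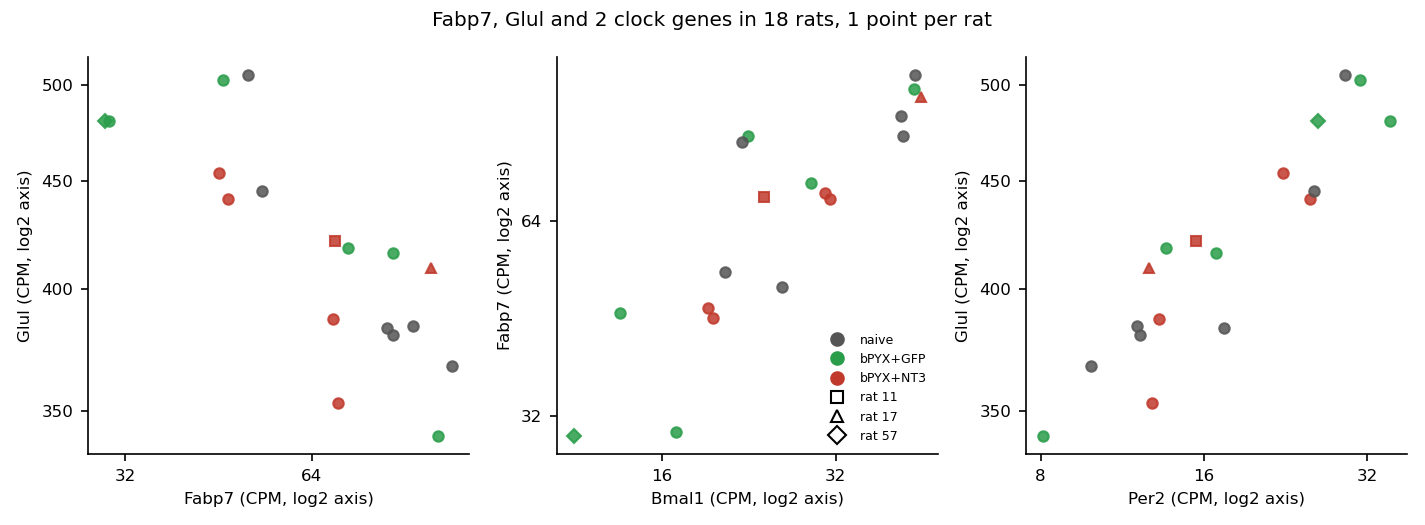
Glul against Fabp7 (left), Fabp7 against the clock gene Bmal1 (middle) and Glul against the clock gene Per2 (right), in CPM on log2 axes, with 1 point per rat coloured by group. The rats of the 3 groups lie mixed along each line, with r of -0.815, 0.87 and 0.92 over 18 rats.

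Bmal1 is the textbook target of the ROR and REV-ERB nuclear receptors, which bind a common DNA element and switch it on and off through the day. The 250 bases before the start of Fabp7 (RefSeq, GRCr8, chr20:37669356-37669605, plus strand) and of Bmal1 (chr1:176766078-176766327, plus strand) are shown because the levels of this pair moved together. They were searched on both strands for the core of that element, TAGGTCA, which occurs in 2.26% of the 33469 windows, and for the E-box CACGTG, which occurs in 5.59%. Capitals mark the ROR element, read on the opposite strand in Fabp7, 196 bases before the start, and on the same strand in Bmal1, 16 bases before the start:
Fabp7: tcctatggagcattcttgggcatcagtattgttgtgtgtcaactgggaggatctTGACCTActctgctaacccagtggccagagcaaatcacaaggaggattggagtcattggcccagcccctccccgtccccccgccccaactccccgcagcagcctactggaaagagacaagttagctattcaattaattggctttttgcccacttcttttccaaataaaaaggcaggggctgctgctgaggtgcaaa
Bmal1: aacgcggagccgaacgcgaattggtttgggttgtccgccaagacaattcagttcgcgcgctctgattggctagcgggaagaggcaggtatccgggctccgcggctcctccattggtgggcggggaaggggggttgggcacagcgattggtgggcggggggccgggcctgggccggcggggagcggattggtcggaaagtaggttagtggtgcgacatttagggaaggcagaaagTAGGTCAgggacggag

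Fabp7 was the only 1 of the 8 genes whose window held the element, and none of the 8 windows held the E-box. Npas2 had no match in its window. A match of letters is a description of the sequence and was not tested as a binding site.

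Other genes of the fatty acid binding protein family did not follow 1 direction. Of 9 listed, 6 were tested. Pmp2, the fatty acid binding protein of peripheral myelin, was 220 to 477 CPM in naive, 157 to 317 CPM in bPYX+GFP and 161 to 295 CPM in bPYX+NT3 rats. It was lower in both injured groups, by log2 fold changes of -0.60 (SE 0.19, edgeR p = 0.00614, adjusted p = 0.859, exact permutation p = 0.0281) and -0.47 (SE 0.18, edgeR p = 0.0188, adjusted p = 0.607, exact permutation p = 0.0584), with overlapping ranges. Fabp4, the form of fat cells and capillaries, was called between the injured groups with a log2 fold change of -2.05 (SE 0.79, edgeR p = 0.0220, adjusted p = 0.851, exact permutation p = 0.141). That value turned on rat 5, which had 57.3 CPM against a bPYX+GFP median of 6.25 CPM, and the exact permutation test gave p = 0.141. Crabp1, which encodes a retinoic acid binding protein of this family, had 0.692 to 1.52 CPM in naive and 0.915 to 2.61 CPM in bPYX+NT3 rats. It was higher in the latter by 0.59 (SE 0.27, edgeR p = 0.0462, adjusted p = 0.607, exact permutation p = 0.0736).

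Of 10 genes of glutamate and glutamine handling other than Glul, 8 were tested. Slc38a2, a glutamine carrier and the most abundant of them, was lower in bPYX+NT3 than in bPYX+GFP rats, with 820 to 1087 against 950.1 to 1166 CPM (log2 fold change -0.17, SE 0.08, edgeR p = 0.0450, adjusted p = 0.851, exact permutation p = 0.0671). None of the 8 genes was called by edgeR in either comparison with naive rats. The glutamate transporter Slc1a3, a usual marker of satellite glia, was counted at under 0.5 CPM in every rat and was not tested. The neuronal gene Snap25 was also under 0.5 CPM in every rat, and a low count under an identifier of this table was not read as a low level of the gene.

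Cdh19, Sox2 and Gja1 followed the composition of the library over rats, and Sox2 was correlated with both of the others. Cdh19, a cadherin of the Schwann cell and satellite glial lineage, was 319 to 404 CPM in naive, 257 to 411 CPM in bPYX+GFP and 204 to 380 CPM in bPYX+NT3 rats. Sox2, a transcription factor of immature glia that holds them undifferentiated, was 25.6 to 39.4, 19.6 to 42.4 and 19.9 to 32.5 CPM. Rats 11 and 57 had the lowest levels of both genes, with 204 and 257 CPM of Cdh19 and 19.9 and 19.6 CPM of Sox2. These are also the rats with the lowest no-feature and highest ambiguous shares. Gja1, the gap junction protein connexin 43 of satellite glia, was lowest in rat 57, with 57.9 CPM, and next lowest in rat 11, with 72.9 CPM.

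Over the 18 rats the no-feature share had r = 0.91 with Cdh19, 0.85 with Sox2 and 0.67 with Gja1, but -0.21 with S100b, 0.32 with Fabp7 and -0.34 with Gfap. These are descriptions across libraries that share 1 scaling. Sox2 and Cdh19 had r = 0.754 (permutation p = 0.00026, adjusted 0.00364 over 28 pairs, rho = 0.670 with permutation p = 0.00304, adjusted 0.0213), which was 0.510 without rats 11 and 57, the farthest from the Sox2 median, and 0.611, 0.810 and 0.755 within naive, bPYX+GFP and bPYX+NT3 rats. Gja1 and Sox2 had r = 0.685 (permutation p = 0.00159, adjusted 0.0148, rho = 0.628 with permutation p = 0.00642, adjusted 0.0360), which was 0.460 without the same rats and 0.580 without rats 18 and 57, the farthest from the Gja1 median. Sox2 also followed Fabp7 (r = 0.634, or 0.644 without rats 21 and 57, rho = 0.734) and went against Glul (r = -0.629, or -0.537 without rats 42 and 52, rho = -0.738), each at an adjusted permutation p of 0.0277 for r and 0.00896 for rho. These and the pair of Fabp7 and Glul were the 5 of 28 pairs that passed for both r and rho, and no pair with Gfap did.

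**Figure D5:**
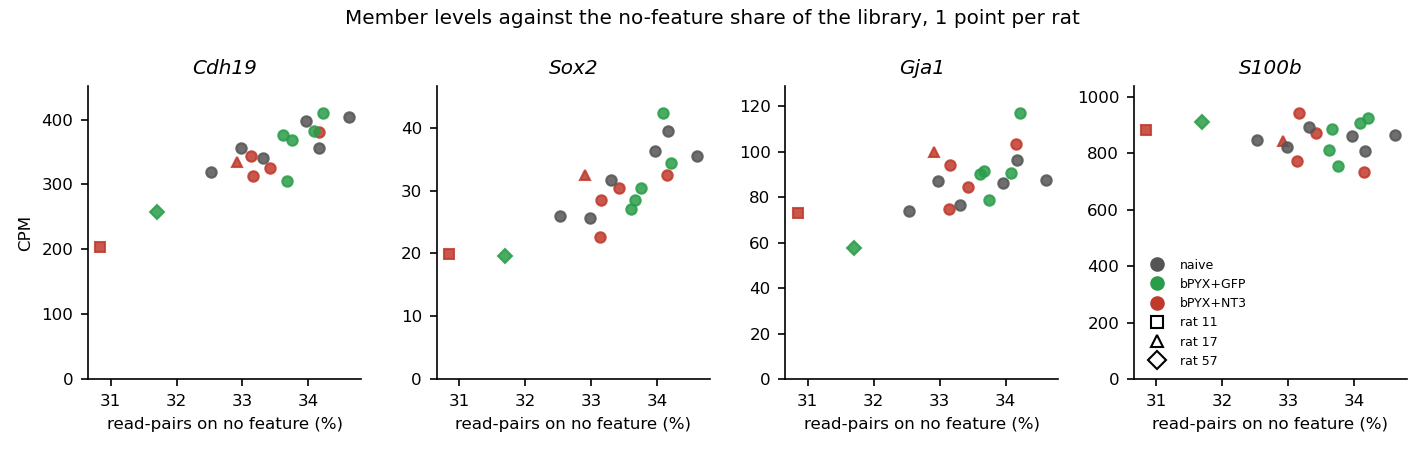
Levels of Cdh19, Sox2, Gja1 and S100b in CPM (y axes, from 0) against the percentage of read-pairs on no annotated feature in the library (x axis), with 1 point per rat coloured by group. Rats 11 (square) and 57 (diamond) have the lowest shares and low Cdh19, Sox2 and Gja1, while S100b shows no such relation, with r of -0.21.

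Cdh19 and Sox2 were also the members nearest to a difference between bPYX+NT3 and naive rats. All 6 bPYX+NT3 rats lay below the naive median of Sox2 and 5 of 6 below that of Cdh19. Their log2 fold changes were -0.22 (95% interval -0.53 to 0.09, edgeR p = 0.143, exact permutation p = 0.180) and -0.19 (95% interval -0.45 to 0.07, edgeR p = 0.133, exact permutation p = 0.115). In a model that held the no-feature share constant they were -0.06 for each (SE 0.09 and 0.06), and without rat 11 they were -0.14 and -0.09. The 3 genes most like Cdh19, Top2b (r = 0.979), Cdc73 (0.972) and Atxn3 (0.970), encode nuclear and ubiquitin-system proteins of all cells, not glial markers. Those most like Sox2 were Id4, an inhibitor of differentiation made in glial precursors (0.928), B3galt2 (0.919) and Rap1a (0.917), and those most like Gja1 were Cald1 (0.868), Rin2 (0.866) and Enpp3 (0.861).

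Of 11 other gap junction genes listed, 6 were tested, and 2 were called as lower in bPYX+GFP than in naive rats, where 2.52% of all genes were: the connexin of myelinating Schwann cells Gjb1, with 3.69 to 7.29 against 5.29 to 9.19 CPM (log2 fold change -0.45, SE 0.18, edgeR p = 0.0236, adjusted p = 1, exact permutation p = 0.0281), and Gjc1, with 4.12 to 5.66 against 4.41 to 8.01 CPM (-0.34, SE 0.15, edgeR p = 0.0407, adjusted p = 1, exact permutation p = 0.0455). Gja1 itself had log2 fold changes of 0.05, 0.06 and 0.01 in the 3 comparisons. Among 10 glial lineage transcription factors and receptors tested, Sox5 was the only one called, lower in bPYX+GFP than in naive rats by -0.39 (SE 0.17, edgeR p = 0.0360, adjusted p = 1, exact permutation p = 0.0325).

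Of 12 other satellite glial genes 9 were tested, and few were called. Kcnj10, the potassium channel Kir4.1 that satellite glia use to buffer potassium, was the only one called between the injured groups. It had 12.5, 13.9 and 21.7 CPM (lowest, median, highest) in bPYX+GFP, 16.2, 20.3 and 24.8 CPM in bPYX+NT3 and 15.1, 18.1 and 24.0 CPM in naive rats. The injured groups overlapped through bPYX+GFP rats 57 and 52, with 21.7 and 16.3 CPM, and the log2 fold change was 0.42 (SE 0.15, edgeR p = 0.0154, adjusted p = 0.851, exact permutation p = 0.0238). Sparc, a matrix protein and the most abundant gene of the list, was lower than in naive rats in bPYX+GFP by -0.16 (SE 0.06, edgeR p = 0.0163, adjusted p = 1, exact permutation p = 0.0108) and in bPYX+NT3 rats by -0.13 (SE 0.06, edgeR p = 0.0373, adjusted p = 0.607, exact permutation p = 0.0325). Aldoc, a glycolytic enzyme of astrocytes and satellite glia, was higher in bPYX+NT3 than in naive rats by 0.36 (SE 0.17, edgeR p = 0.0492, adjusted p = 0.607, exact permutation p = 0.108). Of all genes tested, 3.25% were called between bPYX+GFP and naive rats, 6.01% between bPYX+NT3 and naive rats and 1.73% between the injured groups. Such few calls among 9 genes cannot be read as a result about the list. The list's median log2 fold changes were -0.02, 0.04 and 0.04 against 0.01, 0.001 and 0.005 over all genes.

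Of 13 genes of immature and repair Schwann cells 10 were tested, and none was called by edgeR between bPYX+GFP and naive rats or between the injured groups. From naive to bPYX+NT3 rats Ngfr, the p75 neurotrophin receptor, which sensory neurons also carry, was higher by 0.34 (SE 0.14, edgeR p = 0.0243, adjusted p = 0.607, exact permutation p = 0.0693). It was 255 to 358 CPM in naive and 318 to 538 CPM in bPYX+NT3 rats. Ncam1, an adhesion molecule of neurons and non-myelinating Schwann cells, was higher by 0.16 (SE 0.06, edgeR p = 0.0186, adjusted p = 0.607, exact permutation p = 0.0216). Between bPYX+NT3 and naive rats 6.01% of all genes were called, a share that moved with single rats.

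Some markers of myelinating Schwann cells and fibroblasts were lower in bPYX+GFP than in naive rats, as Gfap was, and some also in bPYX+NT3 rats, while none of them passed adjustment by edgeR. Summed myelinating Schwann cell markers were 3011 to 4720 CPM in naive, 2577 to 3601 CPM in bPYX+GFP and 2957 to 3605 CPM in bPYX+NT3 rats. Of the 10, Mal, Pmp22, Egr2 and Cldn19 were lower in bPYX+GFP rats and Mal and Pmp22 in bPYX+NT3 rats, and the median log2 fold changes of the list were -0.31 and -0.18. Mal, a myelin proteolipid, had the smallest p in the list, with -0.44 (SE 0.12, edgeR p = 0.00213, adjusted p = 0.777, exact permutation p = 0.00866) and -0.47 (SE 0.11, edgeR p = 0.00108, adjusted p = 0.607, exact permutation p = 0.00216). Fibroblast markers summed to 2210.4 to 2982 CPM in naive, 2022 to 2646 CPM in bPYX+GFP and 1619.85 to 2845 CPM in bPYX+NT3 rats, with 3 of 5 tested called as lower in each injured group. Of all genes, 2.52% were called as lower in bPYX+GFP rats and 3.25% in either direction. For bPYX+NT3 rats 6.01% were called in either direction. The calls of both lists are to be read against these shares. Col1a1 and Col3a1 were lower in both, by -0.49 and -0.35 in bPYX+GFP and by -0.34 and -0.37 in bPYX+NT3 rats.

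Macrophage markers, of which 0 of 7 were called by edgeR in any comparison, summed to 65.4 to 140 CPM in naive, 50.4 to 108 CPM in bPYX+GFP and 61.0 to 160 CPM in bPYX+NT3 rats. Endothelial markers summed to 156 to 206, 176 to 198 and 158 to 235 CPM, with Flt1 higher in bPYX+NT3 than in naive rats by 0.28 (SE 0.12, edgeR p = 0.0326, adjusted p = 0.607, exact permutation p = 0.0476). Over the 18 rats Gfap had r = 0.18 with the summed myelinating Schwann cell markers, -0.01 with the fibroblast, 0.47 with the macrophage, 0.40 with the endothelial and -0.39 with the neuronal markers. The part of these cells in the level of Gfap was not tested. Of the neuronal markers 0 of 8 tested were called by edgeR in any comparison, and the oligodendrocyte gene Mog was the only central marker called, lower in bPYX+NT3 than in naive rats by -0.29 (SE 0.10, edgeR p = 0.0109, adjusted p = 0.607, exact permutation p = 0.00433).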

How the data were processed

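The values are whole-number counts per RefSeq identifier, which the authors deposited without normalization. The labels and the study's methods state stranded poly(A) libraries and paired-end Illumina reads, bcl2fastq 1.8.4 (submitters' processing notes), TopHat2 to Rnor_6.0 (rn6), removal of duplicates with Picard and counting with HTSeq. The deposited count table and the 18 count files held equal values. The 17 rats whose file is attached to a sample of another group were grouped by the table heading, whose sample numbers match the recorded descriptions. Of 15075 identifiers, 14187 matched a symbol in RefSeq (GRCr8), and 166 symbols had more than 1 identifier, of which that with the highest mean count was used. No read-pair outside genes entered library sizes. Of all counted read-pairs, 33.3 ± 0.939% (SD over 18 rats) lay on no feature, 2.95 ± 0.166% were ambiguous and 21.1 ± 0.799% aligned to several places. Depth was 12808006 ± 1788004 read-pairs on genes (SD over 18 rats). Each RNA sample is 1 rat.

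Pairs of groups were compared in R 4.3.3 with edgeR 4.0.16 (TMM, estimateDisp, glmQLFit, glmQLFTest) over genes with more than 10 read-pairs in at least 6 of the 12 rats, and p-values were adjusted after Benjamini-Hochberg over every gene of the fit. Genes were called at an unadjusted p under 0.05, as in the study's methods. CPM used TMM library sizes of the 18 rats. Single genes were also compared by two-sided exact permutation tests of log2 CPM (prior count 2), where the smallest p is 0.00216, and correlations used 100000 permutations in Python 3.11.15 with scipy 1.17.1. The scripts were tested on simulated data. The 3 comparisons share rats. Named genes were all 8 members, for each list the genes called (at most the 6 with the smallest p per comparison) and the most abundant gene where a result turned on it, and the genes with the highest r with a member. The members, the gene lists and the tests were chosen with earlier results of these data known, and the clock genes after their values were seen. Alternatives were DESeq2 1.42.0, a likelihood ratio test, other scalings and filters, robust estimation, the no-feature share as a covariate, a replicate block, 1 fit over 3 groups, the grouping by attached files and leaving out rats. Promoter windows came from RefSeq (GRCr8). Gjc3, Sox9, Fabp6, Panx1, Tac1, Aqp4 and Col1a2 were not analysed here.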

Additional observations from a re-analysis of the deposited data

How the results depend on the processing

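Between bPYX+GFP and naive rats, 1 of the 8 genes (Gfap) was called, and this became 0 in a single fit over the 3 groups and 2 (Fabp7 and S100b, without Gfap) with the groups of the attached files. Between the injured groups, 0 of the 7 genes tested were called, and 2 (Fabp7 and S100b) with the groups of the attached files. That grouping turned the log2 fold change of S100b to -0.15 between bPYX+GFP and naive rats and to 0.14 between the injured groups, and gave 4 exact permutation results under 0.05 in place of 1. The cause was not tested, and 17 of 18 rats change group. For Gfap the study itself reported log2 fold changes of -0.70 and 1.26 in these comparisons. They equal the values under the table heading, whereas the grouping by attached files gave -0.74 and 0.02. In all leave-one-out fits the counts of called genes were 1 to 1, 0 to 0 and 0 to 0 in the 3 comparisons. Without rats 11 and 57, chosen after seeing the data, 0 of the 7 genes were called between the injured groups and Gfap had a log2 fold change of 1.08.

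With a replicate block, 2 genes (Sox2 and Cdh19, log2 fold changes -0.23 and -0.21) were called between bPYX+NT3 and naive rats in place of 0, while over all genes the calls went from 703 to 2962. The numbers do not pair the rats in the design: not every pair of equal numbers deviated together (r from -0.37 to 0.53), and few rats correlated best with their own number. The other alternatives (DESeq2, likelihood ratio test, scalings, filters, robust estimation, no-feature covariate) kept the counts of called genes in all 3 comparisons. Gfap had the fewest read-pairs of the 8 genes, from 52 to 427 per rat.

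The calls over all genes, against which the members' counts are read, moved with single rats. Between bPYX+GFP and naive rats they went from 377 to 595 without rat 57. Between bPYX+NT3 and naive rats they went from 703 to 1185 without rat 41 and 1387 without rat 23, and to 399, 401, 395, 433 and 365 without rats 44, 45, 49, 2 and 11. Between the injured groups they went from 201 to 2291 without rat 57 and 390 without rat 23, to 112, 127, 125 and 95 without rats 15, 18, 17 and 11, and to 1462 without both rats 11 and 57. The cause was not tested.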

Other observations

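S100b and Vim, the steadiest of the 8 genes, resembled other genes less closely than the rest did. The 3 genes most like S100b over the 18 rats were Actn2 (r = 0.749), Hapln2 (0.705) and Fbln5 (0.704), and among those most like Vim were Abhd14b (0.831) and Rapgef3 (0.788). The pair of S100b and Vim itself had r = 0.06. Glul and Vim had r = 0.554 (permutation p = 0.0148, adjusted 0.0594 over 28 pairs, rho = 0.527), which did not pass the adjusted threshold.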
